A study of Rattus norvegicus with 12 samples.

Results

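The nuclear-encoded oxidative phosphorylation genes are the genes of the cell nucleus whose proteins build the respiratory chain and the ATP synthase of mitochondria. Members were the genes whose single symbol on the array begins with Nduf, Uqcr or Atp5 or with Cox4 to Cox8, together with Sdha, Sdhb, Sdhc, Sdhd, Cyc1 and Cycs. These prefixes found 102 symbols. Of them 18 are like copies or pseudogenes by their endings and were left out, which gave 84 members among 18154 genes with 1 symbol, each read from its brightest transcript cluster (the array's unit for a gene). The prefixes, endings and brightness made the choice, and the endings left out include l3 and l4. The members comprise 6 core subunits, 28 accessory subunits and 8 assembly factors of complex I, 4 subunits of complex II, 9 genes of complex III and cytochrome c, 15 of complex IV and 14 of complex V. Roles were assigned by symbol, so Ndufa4, a subunit of complex IV despite its name, is counted with the accessory subunits of complex I.

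The respiratory chain passes electrons from NADH and succinate through complexes I to IV to oxygen and pumps protons across the inner mitochondrial membrane, and complex V, the ATP synthase, uses the returning protons to make ATP. In beta cells the ATP made from glucose closes potassium channels of the plasma membrane, and this step couples glucose metabolism to insulin release. Most subunits are encoded in the nucleus, made in the cytosol and imported, while a small set is encoded by mitochondrial DNA.

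The study compared clones of INS1E, a rat insulin-secreting beta-cell line, that had been stably transfected. The first clone carried human islet amyloid polypeptide (hIAPP), a beta-cell peptide whose human form aggregates into amyloid. The second carried the rat form (rIAPP), which does not aggregate, and the third carried the empty vector pcDNA3 (control). All of them kept their own rat genes, were grown at 11.1 mM glucose with geneticin, the drug that selects for the vector, and were harvested after 3 days; each was measured on 2 one-colour Affymetrix rat arrays, a and b. Each group is thus a single clone, so an effect of the transgene and a difference between clones cannot be told apart. Every p-value below judges a difference between clones only against the spread of arrays a and b, pooled over clones and moderated over all genes. That spread may be technical. Both comparisons with control use the same control arrays.

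Array values are on the log2 scale, where 1 unit is a 2-fold change. The median over all genes lay between 8.44 and 8.46 on the 6 arrays, and no array stood apart by its quartiles. Of 15 beta-cell identity genes 12 were measured, and 11 of these were in the top 25% of mean level, among them Ins1, Ins2 and Iapp, so the cells carried the markers of their label. These markers also differed between clones, with limma calling 2 of the 12 higher and 4 lower in hIAPP against control and 3 higher and 2 lower in rIAPP against control. These are 50% and 41.7% of the list, beside 19.0% and 16.0% of all genes. In hIAPP against rIAPP it called 0 higher and 3 lower (25%, beside 11.7%). Iapp read 13.79 and 13.82 in hIAPP and 13.90 and 13.92 in rIAPP, against 13.76 and 13.72 in control. In rIAPP this signal may include the transgene, so there it cannot serve as a marker of the label. Ins1 read 12.60 and 12.74 in hIAPP and 12.82 and 12.65 in rIAPP, against 13.30 and 13.19 in control (-0.57 and -0.51, limma adjusted p = 0.00243 and 0.00565), and Ins2 differed by -0.74 and -0.64 (limma adjusted p = 0.0131 and 0.0269). Marker genes of other cell types were mostly dim, with 11 of 12 acinar and ductal markers, 8 of 9 fibroblast and endothelial markers and 9 of 9 macrophage and leukocyte markers below the median of all genes. Of 8 markers of the other islet cells 7 were below the median, and the bright one was the glucagon gene Gcg. Gcg read 14.11 and 14.12 in hIAPP, against 13.94 and 13.95 in control (0.17, limma adjusted p = 0.0418). It was also higher in hIAPP than in rIAPP (0.18, limma adjusted p = 0.0496). It was the only call of its list, 12.5% in each of these comparisons, beside 19.0% and 11.7% of all genes. Among the fibroblast list the surface glycoprotein Thy1 read 11.30 and 11.42 in hIAPP and 11.10 and 11.15 in rIAPP, against 11.81 and 11.82 in control. Limma called Thy1 lower in both clones than in control (-0.46 and -0.69, limma adjusted p = 0.00147 and 0.00026). It was higher in hIAPP than in rIAPP (0.23, limma adjusted p = 0.0375). Thy1 was the only call of its list, 11.1% in each comparison, beside 19.0%, 16.0% and 11.7% of all genes. Of the macrophage list limma called 1 gene higher in hIAPP and 1 higher in rIAPP against control, and of the acinar and ductal list 0 in any comparison. For the macrophage list this is 11.1% each, beside 19.0% and 16.0% of all genes. The part of such markers in the results on the members was not tested. In these bulk values fewer cells with a transcript and less of it per cell cannot be told apart.

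The promoters of members are given here because genes of this group are known to be bound by a small set of activators. NRF1, the ETS-family factor GABPA and YY1 are the ones best known from mammalian cells. RefSeq windows of the GRCr8 assembly, from 250 bases before to 50 bases after the start of the gene, were found for 74 of the 84 members; Atp5pd, Cox4i2, Cox6a1, Cox6c, Cyc1, Ndufa8, Ndufaf6, Ndufb9, Uqcr11 and Uqcrb had no entry. Windows were searched on both strands for exact letters, and matches to different motifs may overlap. The NRF1 letters, GCGCA and GCGC with any 1 base between them, were in 14 of the 74 windows (18.9%), against 4.25% of all 33469 promoters and 11.8% of the 4044 promoters of genes in the top 25% of level. The ETS letters CCGGAAG were in 21 (28.4%), against 8.75% and 20.5%. The YY1 letters AANATGGC were in 28 (37.8%), against 6.96% and 13.5%. The CCAAT box, taken as a letter string without relation to these factors, was in 29 (39.2%), against 37.5% and 38.9%. At least 1 of the first 3 motifs was found in 48 member windows (64.9%), against 17.7% of all promoters and 38.2% of those in the top 25%. These are letter matches and do not show binding.

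NRF1 matches from 6 members, chosen to show the letters in every complex from I to V except IV, are printed 5′ to 3′ on the strand of the gene with the match in capitals. They lie at chr7:30658194-30658223 (plus strand, Ndufa12), chr20:9613737-9613766 (plus, Ndufv3), chr1:30764454-30764483 (plus, Sdha), chr8:118468149-118468178 (plus, Uqcrc1), chr11:44657523-44657552 (minus, Atp5po) and chr14:1464774-1464803 (plus, Atp5me).
Ndufa12: ctccagctctGCGCGTGCGCagagcgacct
Ndufv3: cagaatgcgcGCGCAAGCGCttggccccac
Sdha: cgtttgcagaGCGCAGGCGCaccaccactc
Uqcrc1: cttccttacaGCGCCTGCGCctcatactcc
Atp5po: acgccgacgcGCGCATGCGCtctggcatca
Atp5me: ttgcgctacgGCGCATGCGCtttcctggct

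Matches are also shown for Uqcrq, Atp5me, Ndufa9 and Cox7b, because these members differed between clones below. An ETS match lies at chr10:38089982-38090011 (minus, Uqcrq). The YY1 matches lie at chr14:1464666-1464695 (plus, Atp5me), chr4:161374142-161374171 (minus, Ndufa9) and chrX:75148992-75149021 (plus, Cox7b). Capitals mark the match, read on either strand.
Uqcrq, ETS: ttccgctcctcCCGGAAGtgacgtgcaaag
Atp5me, YY1: acccttctgaaGCCATCTTgcactaacagc
Ndufa9, YY1: cattgtgggagAAGATGGCggccgccgtcc
Cox7b, YY1: cgccgcagaaaGCCATTTTgtttttcagga
The windows of Ndufb3 and Uqcrfs1, the remaining members that differed, held none of these letters for NRF1, ETS or YY1.

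As a group the members were bright, and most differed little across the clones. By mean level 56 of 84 were in the top 25% of all genes, 20 lay between that and the median and 8 lay below the median. Their median array value was 11.17 and 11.14 in hIAPP and 11.19 and 11.19 in rIAPP, against 11.21 and 11.18 in control. The median difference of the members was -0.01 for hIAPP minus control, 0.00 for rIAPP minus control and -0.02 for hIAPP minus rIAPP, beside -0.01, 0.00 and -0.01 over all genes and 0.02, 0.04 and -0.03 over genes in the top 25% of level. With the arrays centred on that top 25% the members' medians were -0.03, -0.04 and 0.00, and limma called 8 members (2 higher, 6 lower), 4 (all lower) and 3. These are 9.52%, 4.76% and 3.57% of the members, beside 19.5%, 16.6% and 11.7% of all genes. A member's lowest and highest array lay 0.173 apart in the median, beside 0.235 over all genes and 0.202 over genes in the top 25%. This range was under 0.25 in 68 members (81%), beside 54.3% of all genes and 63.8% of the top 25%.

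**Figure D1:**
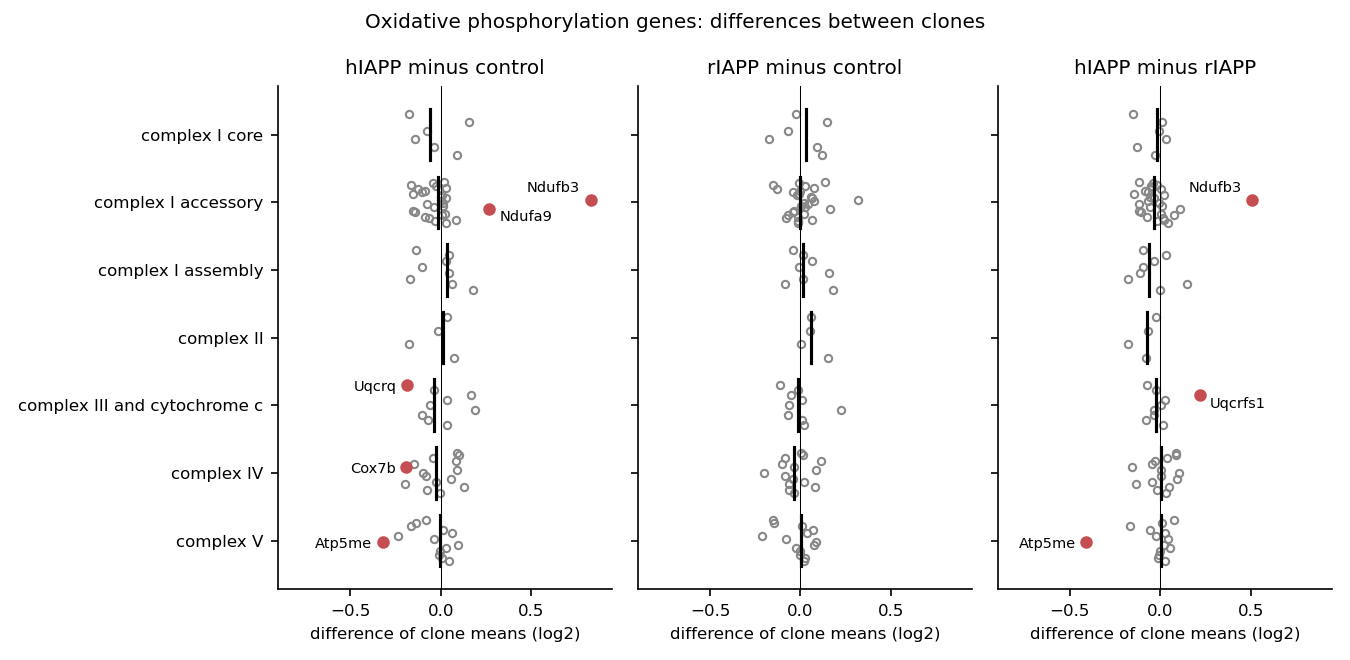
Differences of clone means (log2) for the 84 members, 1 point per member, in rows by role; short vertical bars are the median of the role and filled red points are members called by limma at an adjusted p under 0.05. Most points lie within 0.2 of 0 in all 3 comparisons, and Ndufb3 at 0.83 and Atp5me at -0.32 stand farthest out in hIAPP minus control.

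In the hIAPP clone 5 members differed from control, 2 higher and 3 lower. A gene was called where limma's moderated test, fitted over all genes, gave a Benjamini-Hochberg adjusted p under 0.05. The members called were 5.95% of the 84, beside 19.0% of all genes and 25.4% of the genes in the top 25% of level; 2.38% were called higher and 3.57% lower, beside 10.1% and 8.92% of all genes. At an unadjusted p under 0.05 there were 19 members (22.6%), beside 31.4% of all genes. With the spread modelled by intensity limma called 20 (5 higher, 15 lower), the same share of 23.8% in members and in all genes. Complex I supplied both rises, Ndufb3 and Ndufa9, and the falls came from complexes III (Uqcrq), IV (Cox7b) and V (Atp5me). Array values of the clones did not overlap in 48 members (57.1%), beside 57.8% of all genes.

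Ndufb3, an accessory subunit in the membrane arm of complex I, had the largest difference. It read 10.36 and 10.08 in hIAPP and 9.79 and 9.63 in rIAPP, against 9.40 and 9.38 in control. The 3 clones did not overlap and stood in that order. The difference of hIAPP from control was 0.83 (SE 0.0944, 1.78-fold, limma adjusted p = 0.00102). That of rIAPP from control was 0.32 (SE 0.0944, 95% interval 0.10 to 0.54) and did not pass the test (limma adjusted p = 0.0613), though it did when the hIAPP arrays were left out of the shared spread (limma adjusted p = 0.0242). The array holds Ndufb3 as 2 transcript clusters. The one used is a single probe set, while the dimmer one, with 4 probe sets, gave 0.47 for hIAPP minus control (limma adjusted p = 0.0189 over all clusters) and 0.12 for rIAPP minus control (0.397).

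Ndufa9, an accessory subunit of complex I at the junction of its membrane and peripheral arms, read 12.35 and 12.35 in hIAPP and 12.28 and 12.21 in rIAPP, against 12.09 and 12.08 in control. The hIAPP arrays were above the others. Their difference from control was 0.27 (SE 0.0483, 1.20-fold, limma adjusted p = 0.00805). In rIAPP the difference was 0.16 (95% interval 0.05 to 0.27), which did not pass (limma adjusted p = 0.0644).

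Atp5me, subunit e of the ATP synthase, sits in the membrane part where the enzyme forms dimers. It read 9.29 and 9.21 in hIAPP and 9.66 and 9.65 in rIAPP, against 9.60 and 9.54 in control. The hIAPP arrays lay below all others and the rIAPP arrays slightly above control. The difference of hIAPP from control was -0.32 (SE 0.0514, 0.80-fold, limma adjusted p = 0.0048), and that of rIAPP was 0.09 (95% interval -0.03 to 0.21, limma adjusted p = 0.299). Atp5mg, subunit g, which lies beside subunit e in the enzyme, read 10.27 and 10.32 in hIAPP and 10.33 and 10.30 in rIAPP, against 10.66 and 10.40 in control. Its control arrays were themselves far apart, and neither difference passed (-0.24 with limma adjusted p = 0.1, and -0.21 with 0.133). Both passed without control array b, at -0.37 (limma adjusted p = 0.0156) and -0.35 (0.0236), and without control array a they were -0.10 (0.395) and -0.08 (0.509).

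Uqcrq and Cox7b, small nuclear subunits of complexes III and IV, differed by less. Uqcrq read 12.15 and 12.18 in hIAPP and 12.27 and 12.20 in rIAPP, against 12.36 and 12.34 in control, a difference of -0.19 for hIAPP (SE 0.0501, limma adjusted p = 0.0383). Cox7b read 12.88 and 12.80 in hIAPP and 12.98 and 13.01 in rIAPP, against 13.06 and 13.01 in control, also -0.19 for hIAPP (SE 0.0515, limma adjusted p = 0.0396). In both genes the hIAPP arrays lay below all others. Neither call survived leaving out any 1 of the 6 arrays, with limma adjusted p between 0.0567 and 0.165 for Uqcrq and between 0.0573 and 0.188 for Cox7b.

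**Figure D2:**
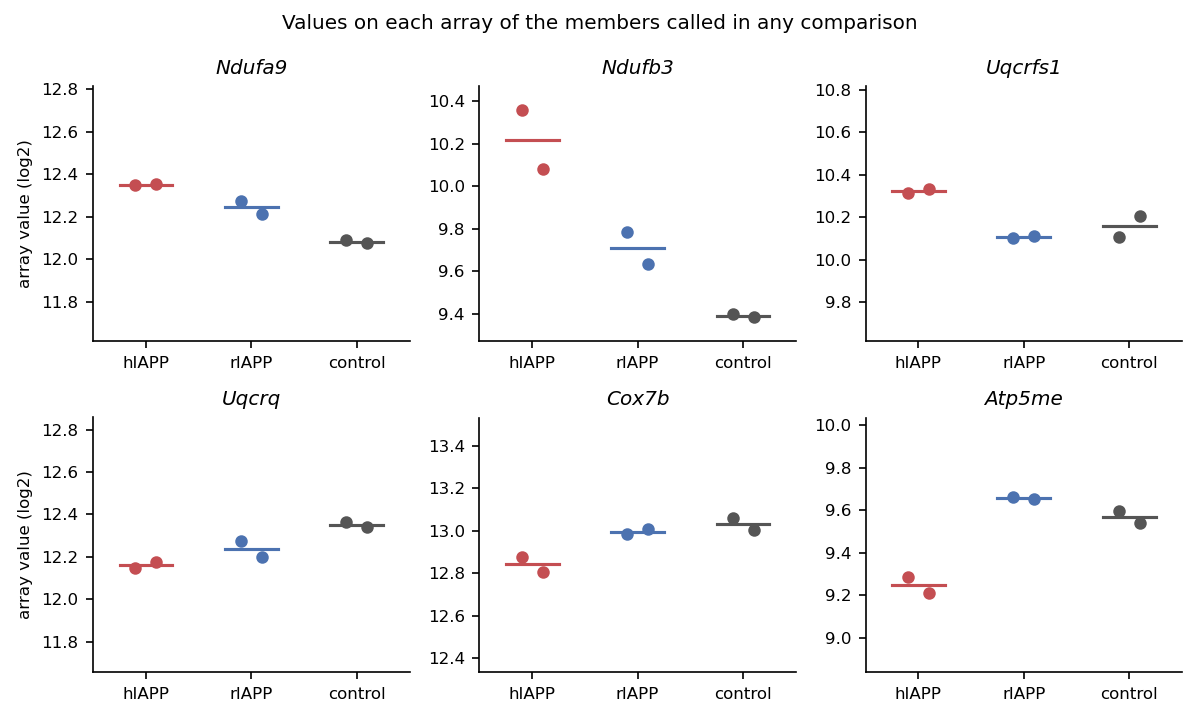
Array values (log2) of the 6 members called in any comparison, with the hIAPP, rIAPP and control arrays from left to right; points are single arrays, lines are means of 2, and every panel spans the same number of units. The hIAPP arrays of Ndufb3 are at 10.08 and 10.36, above control at 9.38 and 9.40, and those of Atp5me are at 9.21 and 9.29, below all the other arrays.

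In the rIAPP clone limma called 0 of 84 members against control, beside 16.0% of all genes (8.70% higher and 7.29% lower) and 20.2% of the top 25%. At an unadjusted p under 0.05 there were 12 members (14.3%), beside 30.7% of all genes, and with the spread modelled by intensity limma called 11 (13.1%, beside 22.0% of all genes). Of the members 43 were above control and 41 below, and 40 (47.6%) did not overlap with control, beside 60.5% of all genes. The largest differences were the 0.32 of Ndufb3 and 0.22 of Uqcrb, a small subunit of complex III whose arrays overlapped between the clones (95% interval -0.05 to 0.49).

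Set against each other, the transfected clones differed in 3 members (3.57%), beside 11.7% of all genes (6.11% higher and 5.56% lower) and 15.0% of the top 25%. With the spread modelled by intensity there were 11 (13.1%, beside 16.6% of all genes). Ndufb3 was higher in hIAPP than in rIAPP by 0.51 (SE 0.0944, limma adjusted p = 0.0137), a call lost without rIAPP array b (0.43). It was also lost with all transcript clusters tested (limma adjusted p = 0.0787) and with exon-level medians (0.34, limma adjusted p = 0.252). The dimmer cluster of Ndufb3 gave 0.36 (limma adjusted p = 0.0624 over all clusters). Atp5me was lower in hIAPP by 0.41 on the log2 scale (-0.41, SE 0.0514, limma adjusted p = 0.00263). Uqcrfs1, the Rieske iron-sulfur protein of complex III, read 10.31 and 10.34 in hIAPP, against 10.10 and 10.11 in rIAPP. It read 10.11 and 10.21 in control. It was higher in hIAPP than in rIAPP by 0.22 (SE 0.0524, limma adjusted p = 0.0367), a call that was lost without any 1 of the 4 arrays of these clones (limma adjusted p 0.0976 to 0.163). Array values did not overlap between these clones in 38 members (45.2%), beside 52.9% of all genes. Limma's F test over the 3 clones called 4 members (4.76%), namely Ndufb3, Ndufa9, Atp5me and Uqcrfs1, beside 23.7% of all genes and 31.2% of the top 25%. It called 22 with the spread modelled by intensity, a setting whose share of all genes by the F test is not given here.

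For the other members the intervals show how large a difference the arrays still allow. The 95% interval lay within 0.25 of 0 in 53 members for hIAPP minus control, 67 for rIAPP minus control and 66 for hIAPP minus rIAPP. It lay within 0.5 of 0 in 83, 83 and 82 members. The median interval reached 0.124 to either side. Missing the test does not show that the clones were equal.

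**Figure D3:**
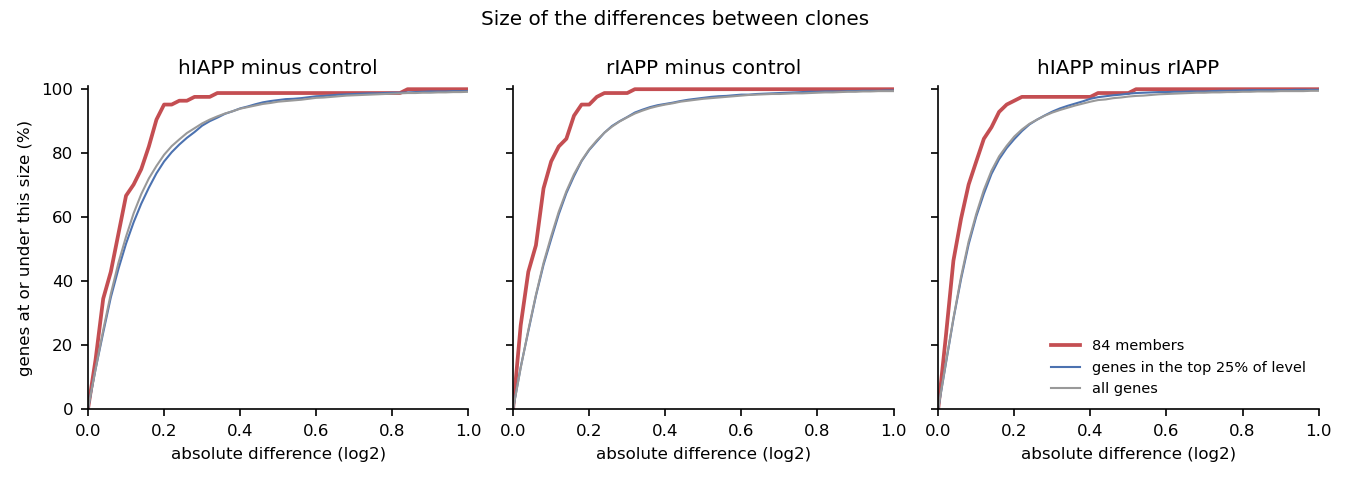
Share of genes (%) whose absolute difference between clones (log2) is at or under the value on the horizontal axis, for the 84 members (red), the genes in the top 25% of mean level (blue) and all genes (grey). At 0.2 the members reach 95.2%, 95.2% and 96.4% in the 3 comparisons, and all genes reach 79.5%, 81.2% and 85.2%; 1 member lies beyond 0.5 in each comparison with hIAPP.

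Genes were also compared within classes of level. Among the 8 members below the median, the median absolute difference was 0.0844 for hIAPP minus control, 0.0498 for rIAPP minus control and 0.0875 for hIAPP minus rIAPP, beside 0.0768, 0.0771 and 0.066 for all genes of that class. Among the 20 members between the median and the top 25% of level, it was 0.116, 0.075 and 0.059, beside 0.121, 0.121 and 0.0997. Among the 38 members in the top 10% it was 0.0604, 0.0388 and 0.0456, beside 0.0848, 0.076 and 0.069. The members' value was thus below that of all genes in both of these brighter classes in each comparison, and above it in 2 of the 3 comparisons for the dim class. In that top 10% 22.4%, 16.5% and 12.5% of all genes were called, and 3, 0 and 0 of the 38 members.

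By role, the 6 measured core subunits of complex I, which carry the flavin and iron-sulfur centres, had 0 limma calls in any comparison. Of all genes limma called 19.0% in hIAPP against control, 16.0% in rIAPP against control and 11.7% in hIAPP against rIAPP. At an unadjusted p under 0.05 there were 3, 3 and 1 core subunits (50%, 50% and 16.7%), beside 31.4%, 30.7% and 24.5% of all genes. Ndufs7, which holds the iron-sulfur cluster next to ubiquinone, read 12.44 and 12.51 in hIAPP and 12.45 and 12.44 in rIAPP, against 12.61 and 12.62 in control. Both transfected clones lay below control, with differences of -0.14 in hIAPP (limma adjusted p = 0.092) and -0.17 in rIAPP (0.0548). Ndufv2, an iron-sulfur subunit of the NADH-oxidising end, read 11.90 and 11.80 in hIAPP and 11.98 and 12.02 in rIAPP, against 12.01 and 12.05 in control, and its -0.18 in hIAPP did not pass (limma adjusted p = 0.0642). Of the accessory subunits 26 of 28 were called in no comparison. The others gave 2 calls in hIAPP against control and 1 in hIAPP against rIAPP, beside 19.0% and 11.7% of all genes. Ndufc2 of the membrane arm read 13.80 and 13.71 in hIAPP and 13.76 and 13.85 in rIAPP, against 13.71 and 13.75 in control, with overlap between hIAPP and control.

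None of the 8 Ndufaf assembly factors of complex I was called, beside 19.0%, 16.0% and 11.7% of all genes in the 3 comparisons. At an unadjusted p under 0.05 there were 1, 0 and 2 (12.5%, 0% and 25%), beside 31.4%, 30.7% and 24.5% of all genes. Ndufaf1 read 9.46 and 9.26 in hIAPP and 9.43 and 9.30 in rIAPP, against 9.09 and 9.27 in control, and the 0.18 of either clone was within the spread (95% interval -0.03 to 0.39). Ndufaf3 and Ndufaf4 act together early in assembly. Ndufaf3 read 9.13 and 9.16 in hIAPP and 9.28 and 9.37 in rIAPP, against 9.31 and 9.32 in control, and its hIAPP difference of -0.17 did not pass (limma adjusted p = 0.0602). Ndufaf4 read 9.49 and 9.43 in hIAPP and 9.73 and 9.41 in rIAPP, against 9.45 and 9.38 in control, with overlapping clones.

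Complex II, the succinate dehydrogenase, had 0 limma calls among 4 subunits, beside 19.0%, 16.0% and 11.7% of all genes in the 3 comparisons. At an unadjusted p under 0.05 there was 1 (25%) in each comparison, beside 31.4%, 30.7% and 24.5% of all genes. Sdha, the flavoprotein, read 11.30 and 11.23 in hIAPP and 11.33 and 11.36 in rIAPP, against 11.19 and 11.19 in control, differences of 0.08 and 0.15 (limma adjusted p = 0.345 and 0.0759). Sdhb, the iron-sulfur subunit, read 11.00 and 10.95 in hIAPP and 11.14 and 11.16 in rIAPP, against 11.12 and 11.18 in control. Its hIAPP arrays lay below all others, and the differences of -0.18 from control and -0.18 from rIAPP missed the threshold (limma adjusted p = 0.0512 and 0.0651). The membrane anchor Sdhc stayed between 12.28 and 12.38 on all arrays.

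In complex III and cytochrome c, beyond Uqcrq and Uqcrfs1, no limma call was made among 7 members. None of the 7 reached an unadjusted p under 0.05. Of all genes 19.0%, 16.0% and 11.7% were called in the 3 comparisons, and 31.4%, 30.7% and 24.5% reached that unadjusted p. Uqcrb read 8.81 and 8.98 in hIAPP and 9.03 and 8.83 in rIAPP, against 8.55 and 8.87 in control, and its arrays overlapped in each comparison. Uqcr11, a small subunit, read 13.00 and 13.05 in hIAPP and 13.06 and 13.06 in rIAPP, against 13.18 and 13.08 in control. In complex V the inhibitor Atp5if1, which blocks ATP hydrolysis by the enzyme when respiration fails, had the narrowest values of the named members. It read 10.98 and 10.99 in hIAPP and 10.99 and 10.98 in rIAPP, against 10.98 and 11.00 in control (range 0.0211 over the 6 arrays). Atp5mk, a small membrane subunit, read 13.94 and 13.87 in hIAPP and 13.88 and 13.87 in rIAPP, against 13.85 and 13.84 in control.

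Several subunits of complex IV have a widely used form and a form restricted to some tissues. The restricted forms measured were Cox4i2 (lung, hypoxia), Cox6a2 and Cox8b (heart and skeletal muscle) and Cox6b2, Cox7b2 and Cox8c (testis). All lay below the median level of all genes, and no limma call was made on them. Of all genes below the median 10.1%, 8.45% and 5.82% were called in the 3 comparisons. At an unadjusted p under 0.05 there was 1 in hIAPP against control (Cox7b2) and 1 in rIAPP against control (Cox6b2). Of all genes 31.4% and 30.7% reached that p. The files used here hold no detection call, so whether these dim signals stand above background was not assessed. Cox6b2 read 7.13 and 7.21 in hIAPP and 7.08 and 7.05 in rIAPP, against 7.34 and 7.19 in control (rIAPP minus control -0.20, limma adjusted p = 0.0752). Cox4i2 read 7.61 and 7.53 in hIAPP and 7.53 and 7.64 in rIAPP, against 7.53 and 7.76 in control.

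Of the widely used forms, Cox4i1 lay between 12.01 and 12.05 on the 6 arrays, Cox6a1 between 13.56 and 13.64 and Cox8a between 13.43 and 13.52. Cox6b1 read 10.73 and 10.89 in hIAPP and 10.82 and 10.79 in rIAPP, against 10.89 and 10.89 in control. Cox5b, a nuclear subunit bound to the matrix side, read 11.01 and 10.86 in hIAPP and 11.00 and 11.13 in rIAPP, against 11.10 and 11.15 in control, and the -0.20 of hIAPP did not pass (95% interval -0.36 to -0.03, limma adjusted p = 0.1).

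The exon-level values come from the same arrays, summarised per probe set. They gave the members 478 probe sets in 80 of the 84 genes. For hIAPP minus control the sign was that of the gene level in 12 of 12 probe sets of Ndufa9, 5 of 5 of Atp5me, 4 of 4 of Uqcrq and 5 of 5 of Cox7b. Of the 5 probe sets of Ndufb3, 1 is the gene-level cluster itself, and the other 4, all of the dimmer cluster, were positive. Sizes varied within a gene. In these 4 of Ndufb3 they ran between 0.25 and 0.78 and in Atp5me between -0.50 and -0.04. For hIAPP minus rIAPP both probe sets of Uqcrfs1 were positive, at 0.16 and 0.17, and the 5 of Atp5me lay between -0.77 and -0.11.

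**Figure D4:**
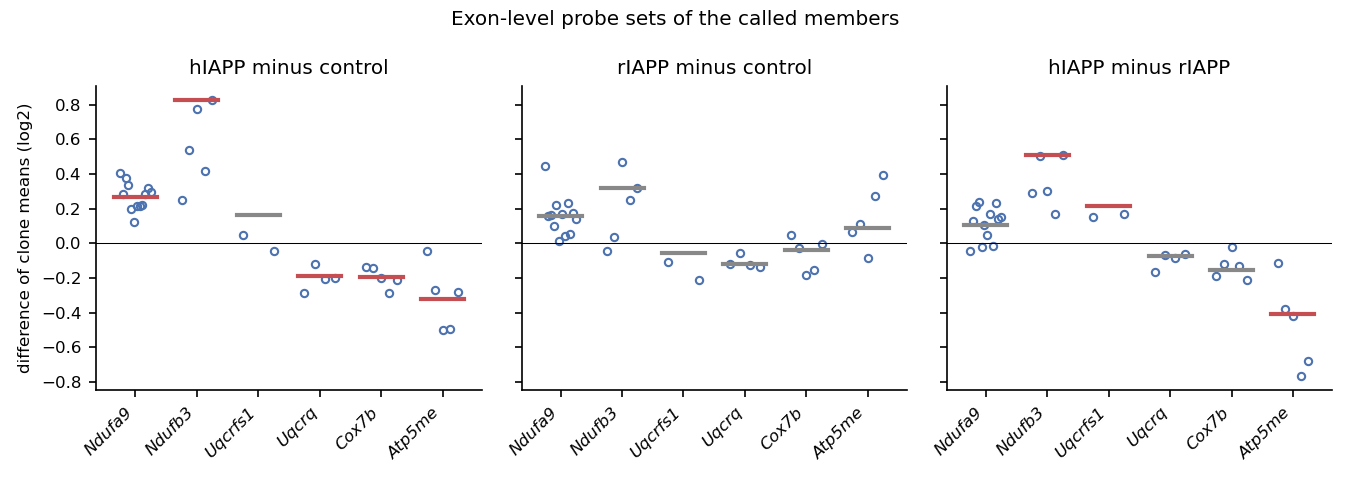
Differences of clone means (log2) of single exon-level probe sets (open circles) for the 6 members called in any comparison, in 3 panels for the 3 comparisons; thick lines are the gene-level difference, red where limma called it and grey elsewhere. In hIAPP minus control every probe set of Ndufa9, Ndufb3, Uqcrq, Cox7b and Atp5me lies on the side of its line, and the 2 of Uqcrfs1 lie on either side of 0.

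The position of a member on its chromosome was examined after the calls were seen. For each member the 25 genes to either side in GRCr8 gene order at or above the median level were taken, or fewer at a chromosome end. Beside Ndufb3 on chromosome 9, 32 of the 50 neighbours were higher and 3 lower in hIAPP than in control by limma's call (median 0.28). Beside Ndufa9 on chromosome 4, 27 were higher and 3 lower (median 0.26). Atp5me lies near an end of chromosome 14, and of its 30 neighbours 20 were lower and 2 higher (median -0.28), beside its own -0.32. Against rIAPP 26 of these 30 were lower and 0 higher, at a median of -0.36 beside its own -0.41. Uqcrfs1 on chromosome 17 had 28 neighbours higher and 2 lower in hIAPP than in rIAPP (median 0.25, beside its own 0.22).

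Uqcrq and Cox7b did not share this pattern. The neighbours of Uqcrq on chromosome 10 had a median of 0.00, with 1 higher and 7 lower. Those of Cox7b on chromosome X had -0.04, with 12 higher and 13 lower. Thus 25 of the 50 neighbours of Cox7b were called, in both directions. Of all 84 members, 5 had a neighbour median at least 0.2 from 0 in hIAPP minus control, namely Ndufb3, Ndufa9, Uqcrfs1, Atp5me and Ndufs1, and Ndufs1 itself differed by 0.09. Over the 84 members the difference of a member and the median of its neighbours had a Pearson r of 0.567 and a Spearman rho of 0.208. Over the 78 members called in no comparison r was 0.059. The 78 were set apart by the same differences, which can lower r in itself, so this r cannot be weighed against 0.567. These values describe members, which share arrays and in part neighbours. How far the stretch of chromosome accounts for the calls was not tested.

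**Figure D5:**
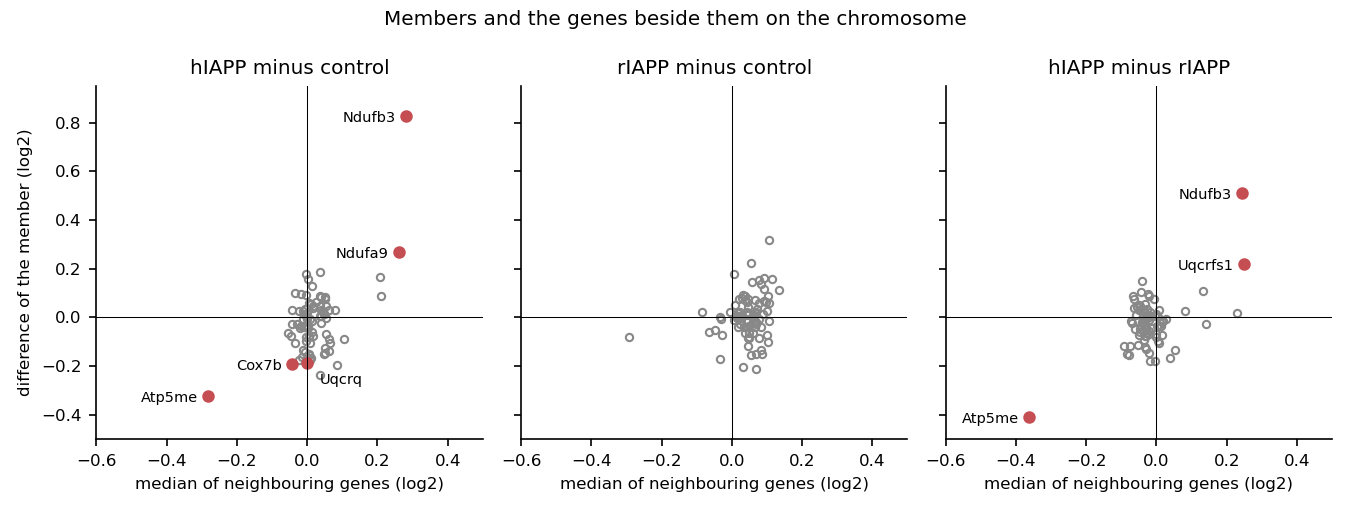
Difference of each of the 84 members (log2, vertical) against the median difference of its neighbouring genes (log2, horizontal), in 3 panels for the 3 comparisons; red points are members called by limma. In hIAPP minus control Ndufb3 and Ndufa9 lie at the right with neighbour medians of 0.28 and 0.26, Atp5me at the left with -0.28, and Uqcrq and Cox7b near 0.

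Genes that work beside the members but lie outside the member rule were described in the same fit. Among the assembly factors is Cox7a2l, a supercomplex factor that the ending in l put among the 18 symbols left out above. Of 40 measured assembly factors outside the member rule, limma called 4 higher and 1 lower in hIAPP against control, 6 higher and 0 lower in rIAPP against control, and 2 higher and 5 lower in hIAPP against rIAPP. These are 12.5%, 15% and 17.5% of the list, beside 19.0%, 16.0% and 11.7% of all genes. Acad9, which with Ndufaf1 assembles the membrane arm of complex I, read 9.86 and 9.89 in hIAPP and 9.87 and 9.93 in rIAPP, against 9.50 and 9.55 in control (0.35 and 0.37, limma adjusted p = 0.00321 and 0.0031). Cox18, which inserts a mitochondrially encoded subunit of complex IV into the membrane, read 10.12 and 10.11 in hIAPP, against 10.54 and 10.58 in rIAPP (-0.45, limma adjusted p = 0.00231). Higd1a and Higd2a, small proteins of respiratory supercomplexes, went opposite ways in hIAPP against control, Higd2a by 0.40 (limma adjusted p = 0.00748) and Higd1a by -0.38 (0.0283).

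Of the 24 regulators of these genes and of mitochondrial DNA, all measured, limma called 1 higher in hIAPP and 2 higher in rIAPP against control, with none lower, and 1 higher and 3 lower in hIAPP against rIAPP. The shares were 4.17%, 8.33% and 16.7%, beside the same 19.0%, 16.0% and 11.7%. Mterf1, a mitochondrial transcription terminator, rose in hIAPP to 9.16 and 9.09, against 8.70 and 8.70 in control (0.42, limma adjusted p = 0.00111). Gabpa, whose protein binds the ETS letters, read 9.98 and 9.95 in hIAPP and 10.14 and 10.20 in rIAPP, against 9.98 and 10.00 in control. It was higher in rIAPP than in control by 0.18 (limma adjusted p = 0.0492) and lower in hIAPP than in rIAPP (-0.20, 0.0363). Tfb1m, which modifies mitochondrial ribosomal RNA, and the nuclear receptor Esrrg were lower in hIAPP than in rIAPP (-0.20 and -0.27, limma adjusted p = 0.0455 and 0.0132).

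Among 24 measured carriers of electrons and nucleotides, limma called 2 higher in hIAPP and 3 higher and 1 lower in rIAPP against control, or 8.33% and 16.7% beside 19.0% and 16.0% of all genes. Between the transfected clones it called 1 (4.17%, beside 11.7%). Ckmt1, the mitochondrial creatine kinase that hands on the energy of ATP as phosphocreatine, was the largest. It read 12.21 and 12.14 in hIAPP and 12.30 and 12.27 in rIAPP, against 11.47 and 11.37 in control, a rise of 0.75 (SE 0.0567, limma adjusted p = 0.000141) and 0.87 (9.53e-05). Coq2, which joins the isoprenoid tail of ubiquinone to its ring precursor, read 10.78 and 10.68 in hIAPP, against 11.11 and 11.18 in rIAPP (-0.41, limma adjusted p = 0.00364). Ucp2, an inner-membrane carrier, read 12.98 and 13.01 in rIAPP, against 13.22 and 13.21 in control (-0.22, limma adjusted p = 0.0245). The 13 subunits encoded by mitochondrial DNA had no row with a single symbol and were not analysed here.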

How the data were processed

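Each of the 6 samples was measured at gene and exon level on the same array. The authors deposited log2 values for 36685 transcript clusters and 220231 probe sets, made with Affymetrix Expression Console and RMA per the submitters' processing notes; versions and build not being given in the sources used here. The values were used as deposited. GEO's platform annotation gave 1 symbol to 18511 clusters, several to 575 and none to 17599. Symbols were updated through gene IDs and synonyms of the GRCr8 annotation (32 clusters), and the brightest cluster per symbol was kept. The main test was limma's moderated test (limma 3.58.1, R 4.3.3) on clone means of all 6 arrays (3 residual and 4.389 prior degrees of freedom), two-sided, with Benjamini-Hochberg adjustment over 18154 genes; other computations used Python 3.11.15. The procedure was tested on simulated data. Alternatives changed the spread model, scaling, level filter, cluster rule, summary level and arrays used.

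The members, gene lists and role groups were chosen with earlier results of these data known. Named are all called members, those with the highest level and the largest difference of each role, the tissue-restricted isoforms of complex IV with their partners, Atp5if1, and up to 4 called genes of each other list. The letters a and b were checked as pairs. Across 18154 genes the deviations of equally lettered arrays correlated at -0.041 at the lowest and 0.0008 at the highest, so the letters were not used to pair arrays. Depth has no meaning for arrays, whose number limits the precision. Clusters with several symbols were left out, among them those of Atp5f1c, Cox7a2, Ndufa10 and Ndufa3. Members with near-identical copies in the genome can share probe signal with them and are uncertain to that extent.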

Additional observations from a re-analysis of the deposited data

Results flagged for a closer look

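In 3 members the difference from control was not the same in both transfected clones, as tested by limma's contrast of hIAPP with rIAPP. This is 3.57% of the members, beside 11.7% of all genes. Arrays of hIAPP and rIAPP did not overlap in 45.2% of the members, beside 52.9% of all genes. The difference between the clones was 0.51 in Ndufb3 (0.5100, limma adjusted p = 0.0137), 0.22 in Uqcrfs1 (0.2188, limma adjusted p = 0.0367) and -0.41 in Atp5me (-0.4088, limma adjusted p = 0.00263), each on the log2 scale, with no overlap between the 2 arrays of hIAPP and the 2 of rIAPP. Genes beside them on the chromosome differed between these clones by a median of 0.24 at Ndufb3, 0.25 at Uqcrfs1 and -0.36 at Atp5me; the part of the neighbourhood in the difference was not tested.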

How the results depend on the processing

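Under 15 alternatives no called member reversed. Ndufb3 against control was called in 15 of 15, Atp5me in 14 against control and 15 against rIAPP, Ndufa9 in 14 and Ndufb3 against rIAPP in 12, but Uqcrfs1 against rIAPP in 8 and Uqcrq and Cox7b in 5 each. Counts of called members moved more. With the spread modelled by intensity it was 20 for hIAPP against control (23.8%, beside 23.8% of all genes), 11 for rIAPP against control (13.1%, beside 22.0%), 11 for hIAPP against rIAPP (13.1%, beside 16.6%) and 22 by the F test. With genes at or above the median level alone it was 18, 10 and 8 of 76 (beside 40.7%, 38.8% and 29.4% of the genes tested) and 19 by the F test. Arrays centred on the top 25% of genes gave 8 (2 higher, 6 lower, against 2 and 3 as deposited), 4 (all lower) and 9 by the F test. The 8 and 4 are 9.52% and 4.76%, beside 19.5% and 16.6% of all genes. The medians of the members were -0.0329, -0.0372 and 0.0008. Exon-level medians gave 2 for hIAPP against control, 1 for hIAPP against rIAPP and 2 by the F test. All transcript clusters together gave 3, 1 and 2. The shares of all genes also fell in hIAPP against control and hIAPP against rIAPP. They were 7.75% and 3.08% with exon-level medians, beside 19.0% and 11.7% in the main test. Of all transcript clusters 7.02% and 3.43% were called in these comparisons. The 4 arrays compared alone gave 3 for hIAPP (3.57%) and 1 for rIAPP (1.19%) against control, each beside 15.8% of all genes. With the replicate letter as a block there were 3, 1 and 2 calls (3.57%, 1.19% and 2.38%, beside 17.1%, 14.1% and 9.92% of all genes). The letters do not pair the arrays. Shares of all genes by the F test are not given for these settings. Leaving out 1 array at a time gave 3 to 4 calls for hIAPP against control (3 without hIAPP a, rIAPP a, rIAPP b or control a), 0 to 1 for rIAPP against control (1 without hIAPP a, hIAPP b or control b), 1 to 3 for hIAPP against rIAPP (1 without rIAPP b; median of the members between -0.0337 and -0.0075) and 2 to 4 by the F test (2 without control a). Counting the copies ending in l3 or l4 as members, chosen after seeing the data, gave 1 call for rIAPP against control, 4 for hIAPP against rIAPP and 5 by the F test. In that fit 16.0%, 11.7% and 23.7% of all genes were called. The cause of these shifts was not tested. Differences of members in 1 clone each, on 2 arrays per clone, speak for these clones only, and dim members may lie near background, which was not assessed.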

Other observations

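Mitochondrial and cytosolic ribosomal proteins were measured in the same fit. Of 70 mitochondrial ribosomal proteins limma called 5 higher and 3 lower in hIAPP against control, 3 higher and 2 lower in rIAPP against control, and 3 higher and 2 lower in hIAPP against rIAPP. The shares were 11.4%, 7.14% and 7.14%, beside 19.0%, 16.0% and 11.7% of all genes. Mrps35, of the small subunit, read 8.90 and 9.03 in hIAPP, against 8.49 and 8.62 in control (0.41, limma adjusted p = 0.0048), and Mrpl32, of the large subunit, read 9.60 and 9.59 in hIAPP, against 9.87 and 9.96 in control (-0.32, limma adjusted p = 0.00504). Of 57 genes taken by symbol as cytosolic ribosomal proteins limma called 0 higher and 3 lower in hIAPP against control (5.26%). It called 1 in rIAPP against control (1.75%) and 1 in hIAPP against rIAPP (1.75%). The call in rIAPP against control was Rps19bp1, whose product binds a ribosomal protein and is not one itself. Rpl15 was at 8.64 and 8.40 in hIAPP, against 8.98 and 8.95 in control (-0.44, limma adjusted p = 0.011).

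Among the 18 copies left out of the members, limma called Atp5mgl3 lower in rIAPP than in control (-0.34, adjusted p = 0.0472) and Atp5mgl4 higher in hIAPP than in rIAPP (0.31, adjusted p = 0.0191), both below the median level. Their parent gene Atp5mg differed in the same comparisons by -0.21 (limma adjusted p = 0.133) and -0.02 (0.913). These copies were picked after their values were seen.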
